A study of Mus musculus with 8 samples.

Results

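The label motile cilia and axoneme genes stands for genes whose products build and run beating cilia. Members were chosen by symbol: families Dnah, Dnai, Dnal, Cfap, Rsph, Drc, Tekt, Spag and Ift, plus Dynlrb2, Tppp3, Foxj1, Sec14l3, Ccdc39 and Ccdc40. A choice by symbol also takes in genes with other roles, such as the defensin-like Spag11a and Spag11b. The rule found 70 of the 14995 genes that had a probeset carrying their symbol alone, and each gene was read from its brightest probeset. Ccdc39 was not analysed here, because no probeset carried only that symbol. Of the 70 members, 68 had a mean over the 8 arrays above log2 2.07, the 30th percentile of all probesets, and were tested together with 11444 genes in all. The mean was 1.63 for the dynein heavy chain gene Dnah7a and 2.01 for the tektin gene Tekt3, so both were left out. Just above that limit lay Cfap20dc at 2.22 and Spag11a at 2.47.

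The study compared mouse 2-cell embryos by the kind of father, and hybridised the RNA of each embryo pool to an Affymetrix array. KDM1A TG embryos (3 arrays) were sired by males carrying a transgene for KDM1A, a histone demethylase. nonTG embryos (2 arrays) were sired by their littermates without the transgene, and C57BL/6 embryos (3 arrays) by males of the control strain. All mothers were C57BL/6 females given 5 IU each of eCG and hCG, and embryos were flushed from their oviducts 46 to 48 hours after hCG, on average 26 to a pool. Each sample carries a genotype label of C57BL/6, KDM1A TG or nonTG, read here as that of the father. The labels do not give the promoter of the transgene, the ages of the animals or transgene inheritance by the embryos. They also do not give the number of males behind each pool, so p-values reflect pool-to-pool spread alone. That spread may be technical. The number of arrays limits the precision of every value.

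A motile cilium is a microtubule axoneme moved by outer and inner dynein arms. Radial spokes and the central apparatus regulate the arms, the nexin-dynein regulatory complex links neighbouring doublets, and tektins and other proteins line the doublet walls. Intraflagellar transport (IFT) complexes A and B carry the parts in and out. Multiciliated cells of the oviduct epithelium switch motile cilium genes on through the transcription factors FOXJ1 and RFX. Sperm build a related axoneme in their tails. In bulk RNA, fewer cells of a type and less RNA per cell cannot be told apart.

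Across the 8 pools the members varied together, and most were high or low in the same arrays. Their mean log2 value was 4.75, 3.99 and 4.56 in KDM1A TG replicates 1, 2 and 3, 4.45 and 4.30 in nonTG replicates 1 and 2, and 3.90, 4.27 and 3.94 in C57BL/6 replicates 1, 2 and 3. KDM1A TG replicates 1 and 3 stood above every other pool, while KDM1A TG replicate 2 lay among the C57BL/6 pools. Group means were 4.43 ± 0.40 (SD, n = 3) in KDM1A TG, 4.37 ± 0.10 (SD, n = 2) in nonTG and 4.04 ± 0.20 (SD, n = 3) in C57BL/6. The KDM1A TG range took in both nonTG values and overlapped that of C57BL/6, while the lower nonTG value lay just above the highest C57BL/6 value. The mean of all genes tested was 3.88, 3.76 and 3.96 in KDM1A TG, 3.74 and 3.71 in nonTG, and 3.69, 3.72 and 3.69 in C57BL/6, so KDM1A TG replicates 1 and 3 were also the highest over all genes. Those arrays had the widest values, with interquartile ranges of 2.38 and 2.60 against 1.87 to 2.09 in the other 6. The part of this width in the member levels was not tested.

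**Figure D1:**
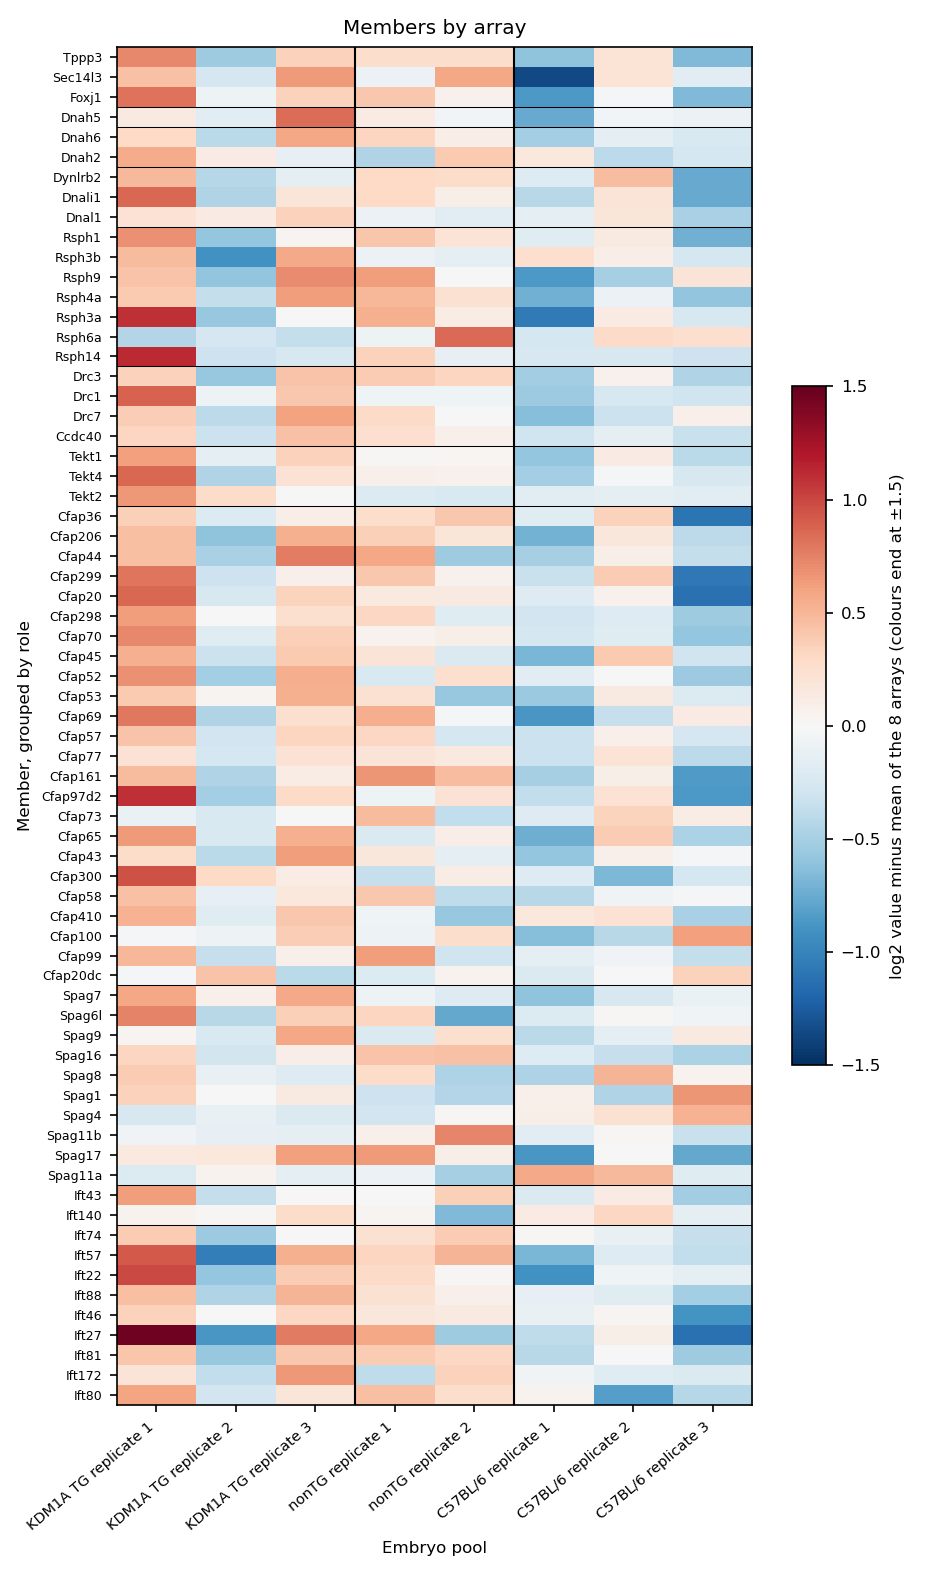
Log2 value of each of the 68 members (rows, grouped by role) in each of the 8 embryo pools (columns), minus the member's own mean over the 8 arrays, with colours ending at ±1.5. KDM1A TG replicates 1 and 3 are red for most members, and KDM1A TG replicate 2 and C57BL/6 replicates 1 and 3 are blue for most.

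The plot of members by array shows how many members shared this order. KDM1A TG replicate 1 was the highest of the 8 arrays for 34 of 68 members (50.0%), against 15.9% of all genes, and KDM1A TG replicate 3 for 18 (26.5%), against 26.1%. KDM1A TG replicates 1 and 3 both exceeded every C57BL/6 array for 46 members (67.6%), against 34.0% of all genes. KDM1A TG replicate 2 did so for 8 members (11.8%), against 27.3% of all genes, and was below both other KDM1A TG arrays for 58 members (85.3%), against 49.0%. Among controls, C57BL/6 replicate 2 was above the other C57BL/6 arrays for 48 members (70.6%), against 38.9% of all genes. The lowest array was C57BL/6 replicate 1 for 24 members (35.3%), against 15.4% of all genes, and C57BL/6 replicate 3 for 22 (32.4%), against 19.1%. These shares describe arrays that were looked at after the data were seen, and they carry no test.

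Each member was set against the mean of the other members over the 8 arrays. The median Pearson correlation was 0.77, and 32 of 68 members (47.1%) were above 0.8. Of 11376 other genes, 9.93% reached 0.8 with the member mean, and their median was 0.19. The arrays share scale and amplification, and the mean of all other genes itself correlated at 0.74 with the member mean, so these values are descriptions. Tppp3 (0.96), Tekt1 (0.95), Tekt4 (0.94), Dnali1 (0.94), Ccdc40 (0.94) and Foxj1 (0.94) followed the others most closely. Spag4 (-0.68), Cfap20dc (-0.52), Spag11a (-0.44), Rsph6a (-0.25) and Spag1 (-0.15) were the 5 members below 0. Spag4 encodes a SUN-domain protein of spermatids, Spag11a an epididymal defensin-like protein, and Rsph6a a radial spoke protein of mouse sperm tails.

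The regulator FOXJ1 and the abundant proteins of ciliated cells come first among the roles. Foxj1, which drives the motile cilium programme, had log2 values of 6.29, 5.40 and 5.82 in KDM1A TG, 5.88 and 5.55 in nonTG, and 4.62, 5.45 and 4.82 in C57BL/6. Both nonTG arrays and 2 of 3 KDM1A TG arrays were above all C57BL/6 arrays. Its log2 change from C57BL/6 was 0.87 in KDM1A TG (95% interval 0.22 to 1.53, SE 0.33), the smallest p among members in that comparison, and it did not pass limma's test over all genes (adjusted p = 0.214). In nonTG the change was 0.75 (interval 0.02 to 1.49, limma adjusted p = 0.592). Tppp3, a tubulin polymerization promoting protein of ciliated cells, had values of 7.23, 5.99 and 6.86 in KDM1A TG, 6.78 and 6.78 in nonTG, and 5.91, 6.72 and 5.86 in C57BL/6. KDM1A TG replicate 2 thus lay within the C57BL/6 range, and the nonTG arrays just above it. Tppp3 changes were 0.53 in KDM1A TG and 0.62 in nonTG (limma adjusted p = 0.461 and 0.682). Sec14l3, a lipid-binding protein of the SEC14 family found in ciliated epithelia, read 6.05, 5.36 and 6.25 in KDM1A TG, 5.53 and 6.19 in nonTG, and 4.25, 5.82 and 5.45 in C57BL/6. C57BL/6 replicate 1 stood lowest for this gene, and the groups overlapped. Its changes were 0.71 and 0.69 (limma adjusted p = 0.335 and 0.658).

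Dynein subunits differed in how closely they followed the other members, from a correlation of 0.94 for Dnali1 and 0.89 for Dnah6 to 0.19 for Dnah2. Dnah2 was dim, with a mean log2 value of 2.58 against 7.15 for Dnali1 and 3.80 for Dnah6. The part of low signal in its correlation was not tested. Dynlrb2, a roadblock light chain, had log2 values of 10.36, 9.44 and 9.73 in KDM1A TG, 10.18 and 10.14 in nonTG, and 9.68, 10.33 and 9.12 in C57BL/6. C57BL/6 replicate 2 almost equalled KDM1A TG replicate 1, and the changes were 0.13 in KDM1A TG (interval -0.53 to 0.80) and 0.45 in nonTG (interval -0.29 to 1.19). Dnali1, an inner arm light chain, read 8.01, 6.70 and 7.34 in KDM1A TG, 7.45 and 7.24 in nonTG, and 6.74, 7.35 and 6.40 in C57BL/6, with changes of 0.52 and 0.52. Its groups overlapped. The outer arm heavy chain gene Dnah5 had changes of 0.57 in KDM1A TG and 0.33 in nonTG, and the inner arm heavy chain gene Dnah6 0.45 and 0.51. None of these 4 dynein genes passed (limma adjusted p between 0.421 and 0.857 in both comparisons).

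Radial spoke and regulatory complex genes held several of the larger values. Rsph4a, a spoke head protein, had log2 values of 4.57, 3.82 and 4.81 in KDM1A TG, 4.68 and 4.41 in nonTG, and 3.46, 4.09 and 3.59 in C57BL/6. Every nonTG array was above every C57BL/6 array, and KDM1A TG replicate 2 was not. Its changes were 0.68 in KDM1A TG and 0.83 in nonTG (limma adjusted p = 0.335 and 0.518). Rsph1, another spoke head protein, had changes of 0.31 and 0.57. Rsph6a ran the other way in KDM1A TG, with a change of -0.44 from C57BL/6 and 0.29 in nonTG, and its nonTG values of 3.0 and 3.92 were apart. Drc1, which the nexin-dynein regulatory complex needs for assembly, read 5.43, 4.46 and 4.95 in KDM1A TG, 4.47 and 4.48 in nonTG, and 3.99, 4.30 and 4.25 in C57BL/6. Both the KDM1A TG and the nonTG arrays lay above all C57BL/6 arrays for Drc1. Its changes were 0.77 and 0.30 (limma adjusted p = 0.273 and 0.824). Drc3 had changes of 0.37 and 0.65. Ccdc40, which with Ccdc39 sets the spacing of spokes and arms along the doublet, had changes of 0.40 and 0.42, and its values were 4.08, 3.44 and 4.20 in KDM1A TG, 4.02 and 3.84 in nonTG, and 3.47, 3.62 and 3.42 in C57BL/6. KDM1A TG replicate 2 again sat among the controls.

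Among tektins, Tekt1 had changes of 0.55 in KDM1A TG and 0.31 in nonTG, and Tekt2 0.46 and -0.05. The largest change of a Cfap gene in KDM1A TG was that of Cfap300, which in humans is needed for dynein arm assembly, with log2 values of 4.25, 3.59 and 3.41 in KDM1A TG, 2.95 and 3.41 in nonTG, and 3.10, 2.62 and 3.03 in C57BL/6. All KDM1A TG arrays exceeded all C57BL/6 arrays, with a change of 0.83 (SE 0.33, limma adjusted p = 0.237). Cfap161, a protein inside the doublet microtubules, read 4.38, 3.45 and 4.01 in KDM1A TG, 4.56 and 4.35 in nonTG, and 3.39, 3.98 and 3.05 in C57BL/6. Its changes were 0.47 in KDM1A TG and 0.98 in nonTG, and the nonTG change had the smallest p among members in that comparison (SE 0.37, limma adjusted p = 0.385). Cfap206 of the radial spokes had changes of 0.44 and 0.58, and Cfap36 0.40 and 0.64. Cfap73 (-0.20 and -0.03) and Cfap20dc (-0.04 and -0.12) were the Cfap genes with changes below 0 in both. Cfap410 had 0.29 in KDM1A TG and -0.28 in nonTG.

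Spag genes carry a name given for sperm antigens and do not all share a structure, and their values differed among themselves. Spag17 and Spag16 belong to the central apparatus. Spag17 had log2 values of 2.91, 2.91 and 3.37 in KDM1A TG, 3.40 and 2.85 in nonTG, and 1.88, 2.76 and 1.99 in C57BL/6, so neither group overlapped with C57BL/6. Its changes were 0.85 in KDM1A TG and 0.91 in nonTG (limma adjusted p = 0.228 and 0.427). A dimmer Spag17 probeset read 1.91, 1.70 and 2.08 in KDM1A TG, 2.06 and 2.55 in nonTG, and 1.74, 2.30 and 1.45 in C57BL/6, and there the groups overlapped. Spag16 had changes of 0.39 and 0.77, and Spag7 0.72 and 0.18. Spag4 had changes of -0.47 and -0.42, with all arrays of both groups below all C57BL/6 arrays, and Spag11a -0.39 and -0.58. Spag1, a dynein assembly factor in humans, had 0.07 and -0.47. Spag11b, an epididymal defensin-like gene beside Spag11a in name, had 0.05 and 0.56.

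The 9 IFT-B genes with an Ift symbol, whose complex moves cargo toward the tip, all had positive changes from C57BL/6. These ran from 0.10 to 0.93 in KDM1A TG and from 0.13 to 0.83 in nonTG, and none passed. Of all genes, 64.9% were above 0 in KDM1A TG and 53.2% in nonTG. Ift27, a small GTPase of IFT-B, ranged widest, at 5.98, 3.64 and 5.30 in KDM1A TG, 5.10 and 3.99 in nonTG, and 4.14, 4.60 and 3.40 in C57BL/6. KDM1A TG replicate 2 lay below 2 of the 3 C57BL/6 arrays, and the changes were 0.93 and 0.50 (limma adjusted p = 0.246 and 0.753). Ift57 read 6.50, 4.55 and 6.12 in KDM1A TG, 5.90 and 6.09 in nonTG, and 4.90, 5.39 and 5.21 in C57BL/6. Its KDM1A TG replicate 2 was the lowest of all 8 arrays, and the changes were 0.56 and 0.83. Ift74 had changes of 0.10 and 0.45. In IFT-A, which returns cargo to the base, Ift43 had changes of 0.30 and 0.38, and Ift140 0.02 and -0.41.

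Promoters of cilium genes often hold an X-box, the site bound by RFX factors. The windows from 250 bases before to 50 after each start were therefore searched for the X-box core GTTGCC on both strands. RefSeq sequences of GRCm38.p6 were found for 57 of 70 members. The core lay in 24 of them (42.1%), against 1298 of 8838 genes tested on the arrays that had a window (14.7%). It was found in 8 of 16 Ift and Spag genes and in 16 of 41 other members. The X-box palindrome, which can contain the core on either strand, lay in 2 of 62 member windows (3.23%), against 0.451% of 32851 windows. The forkhead motif TGTTTAC, searched on both strands with overlaps between motifs counted for each, lay in 3 member windows (4.84%), against 3.65% of all. Members with the core had median log2 changes of 0.46 in KDM1A TG and 0.30 in nonTG (23 genes), and those with a window lacking it 0.42 and 0.40 (32 genes). A match is a description of letters and does not show a bound site.

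The 250 bases before the start of Dynlrb2 (chr8:116504765-116505014, plus strand, GRCm38.p6) are shown because this gene is listed singly in the rule and has the core, in capitals, starting at base -51.
Dynlrb2: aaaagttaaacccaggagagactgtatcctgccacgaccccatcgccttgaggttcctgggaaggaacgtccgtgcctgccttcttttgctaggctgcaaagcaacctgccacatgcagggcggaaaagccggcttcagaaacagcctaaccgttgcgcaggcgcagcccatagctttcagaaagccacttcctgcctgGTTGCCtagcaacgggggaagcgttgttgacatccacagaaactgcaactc
The windows of Sec14l3 and Ccdc40 held no match to any of the 3 motifs. Shorter stretches show the core or its reverse complement GGCAAC, in capitals, before the starts of 5 other members described above, each read 5′ to 3′ on the strand of its gene in GRCm38.p6. They are Tekt1 (chr11:72361883-72361929, minus), Cfap161 (chr7:83794861-83794917, minus), Ift57 (chr16:49699195-49699251, plus), Spag16 (chr1:69826847-69826884, plus) and Cfap20dc (chr14:8666367-8666404, minus), chosen after the matches were seen, among members with at least 2 copies, because the copies lie close together.
Tekt1: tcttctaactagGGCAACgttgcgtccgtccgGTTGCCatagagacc
Cfap161: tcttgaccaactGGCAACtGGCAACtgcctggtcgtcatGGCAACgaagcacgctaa
Ift57: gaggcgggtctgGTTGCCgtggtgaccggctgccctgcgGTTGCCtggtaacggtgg
Spag16: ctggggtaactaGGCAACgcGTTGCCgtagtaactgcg
Cfap20dc: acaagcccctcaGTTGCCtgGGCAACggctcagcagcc
Cfap161 held 3 copies and the others 2. Cfap20dc, with the palindrome, was one of the members whose level did not follow the rest (correlation -0.52), and its mean of 2.22 lay just above the filter. Cfap298, the other member with the palindrome, followed the rest at 0.86. Of the RFX genes themselves, Rfx3 had log2 changes of 0.53 in KDM1A TG and 0.50 in nonTG, and Rfx2 0.08 and 0.24, without passing.

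Embryos of transgenic and of control-strain fathers, KDM1A TG and C57BL/6 (n = 3 and 3), form the widest contrast of the design. None of the 68 members passed limma's test with Benjamini-Hochberg adjustment over all genes, against 0.725% of genes tested (0.655% higher and 0.0699% lower). At an unadjusted p under 0.05, 9 members were higher (13.2%) and 0 lower, against 12.1% of all genes higher and 2.1% lower (14.2% in either direction), a share near the background. The arrays did not overlap for 7 members on the higher side (Cfap298, Cfap300, Cfap70, Drc1, Spag17, Spag7 and Tekt2, 10.3%) and for 1 on the lower (Spag4), against 14.5% and 5.34% of all genes. Member changes ran from -0.47 to 0.93, and 62 of 68 were above 0 (91.2%), against 64.9% of all genes. Their median was 0.45, against 0.18 for all genes, a difference of 0.26. Dropping KDM1A TG replicate 1 gave 0.09 for that difference, dropping KDM1A TG replicate 2 gave 0.46, and dropping C57BL/6 replicate 1 or 3 gave 0.17 or 0.16. After cyclic loess it was 0.15, and with a filter at the 50th percentile 0.16. With array weights, which gave KDM1A TG replicate 2 a weight of 0.53 and KDM1A TG replicate 1 a weight of 2.49, 25 members passed, all higher (36.8%), against 14.8% of all genes. Without KDM1A TG replicate 2, 1 member passed, Ift27, against 1.99% of all genes.

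**Figure D2:**
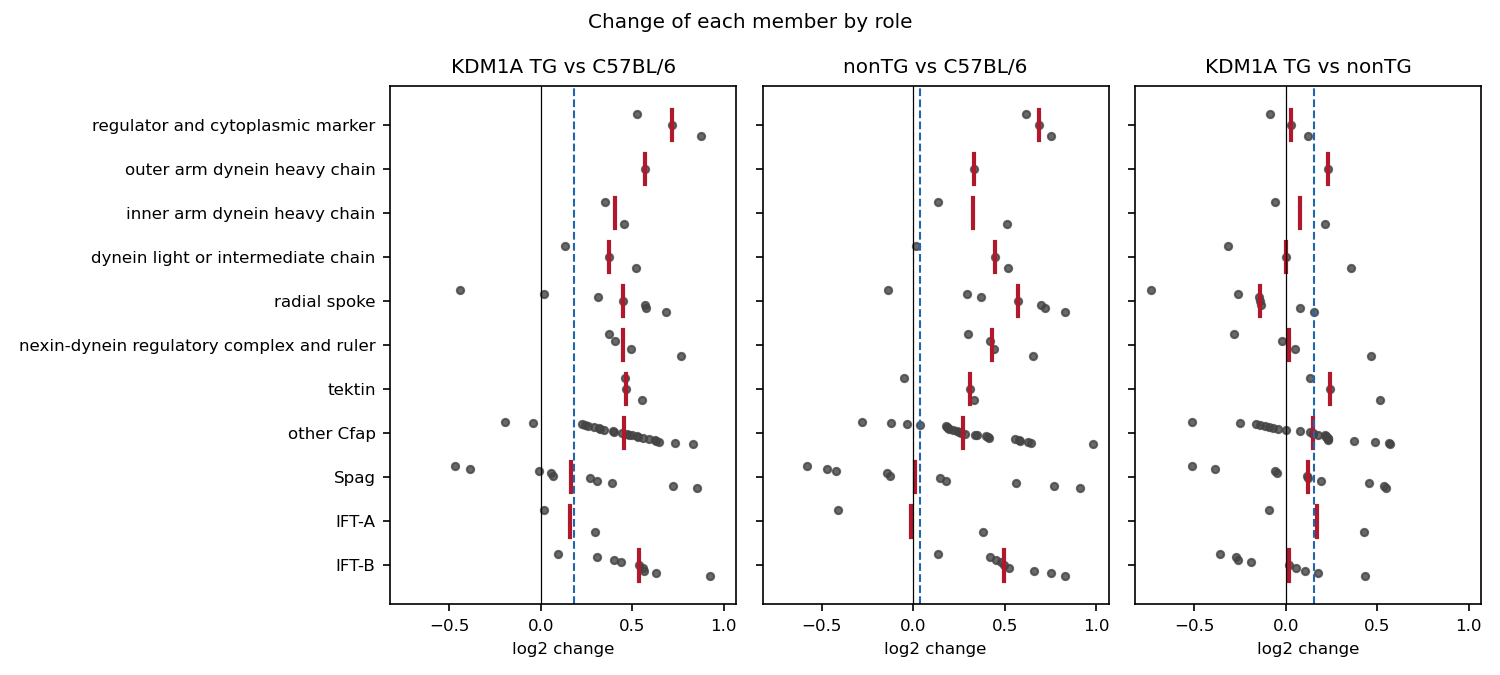
Log2 change of each of the 68 members (points, rows by role) in the 3 comparisons, with the median of each role in red, 0 as a thin line and the median of all 11444 genes as a dashed blue line. Most points of KDM1A TG vs C57BL/6 and nonTG vs C57BL/6 lie right of the dashed line, and those of KDM1A TG vs nonTG lie on both sides of it.

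By role, the median change in KDM1A TG against C57BL/6 was 0.71 for the 3 regulator and cytoplasmic marker genes, 0.54 for IFT-B, 0.47 for tektins, 0.46 for other Cfap genes, 0.45 each for radial spokes and for the regulatory complex with Ccdc40, 0.37 for dynein light chains, 0.17 for Spag genes and 0.16 for IFT-A. In the plot of changes by role, Spag genes spread from -0.47 to 0.85, while 44 of the 47 members that are neither Ift nor Spag genes were above 0.

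nonTG embryos, whose fathers came from the transgenic litters without the transgene, were set against the same C57BL/6 arrays (n = 2 and 3). No member passed limma's adjusted test, against 0.131% of genes tested (0.0699% higher and 0.0612% lower). At an unadjusted p under 0.05, 7 members were higher (10.3%) and 0 lower, against 4.61% and 3.62% of all genes (8.22% in either direction). These were Cfap161, Spag17, Rsph4a, Spag16, Ift57, Foxj1 and the IFT-B gene Ift80 (log2 change 0.76). The arrays did not overlap for 25 members on the higher side (36.8%), against 15.4% of all genes, and for 2 on the lower side, Spag4 and Tekt2, against 9.41%. In all 57 of 68 were above 0 (83.8%), against 53.2% of all genes, and the median was 0.38, against 0.04. The radial spoke median was 0.57, that of IFT-B 0.50 and that of Spag genes 0.01. Both comparisons share the C57BL/6 arrays, so their values are not independent of each other.

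KDM1A TG and nonTG embryos (n = 3 and 2) differ by whether the father carried the transgene. No member passed limma's adjusted test, against 0.0437% of genes tested (0.035% higher and 0.00874% lower). At an unadjusted p under 0.05, 1 member was lower, Rsph6a (1.47%), and 0 higher, against 1.43% of all genes lower and 4.97% higher (6.41% in either direction). The arrays did not overlap for 5 members on the higher side (Cfap300, Dnal1, Spag1, Spag7 and Tekt2) and 3 on the lower (Rsph6a, Spag11b and Spag16), against 16% and 6.38% of all genes. Its log2 values were 2.63, 2.82 and 2.72 in KDM1A TG and 3.0 and 3.92 in nonTG, which did not overlap, with a change of -0.74 (interval -1.47 to -0.01, limma adjusted p = 0.775). Of the 68 changes 40 were above 0 (58.8%), against 65.4% of all genes, and the median was 0.08, against 0.16. Foxj1 had a change of 0.12 (interval -0.61 to 0.85), Tppp3 -0.09 (interval -0.83 to 0.66) and Dynlrb2 -0.32 (interval -1.06 to 0.43), and these intervals leave room for changes in either direction. Relative to all genes the median was -0.08, and its sign turned when KDM1A TG replicate 2 was dropped (0.07), with array weights (0.06) and without the filter, where the medians were 0.07 for members and 0.06 for all genes.

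Cilium genes outside the symbol rule gave a check of the label. Of 36 other markers of ciliated epithelial cells, 29 had a probeset and all 29 passed the filter. Their mean was 5.76, 4.98 and 5.81 in KDM1A TG, 5.68 and 5.21 in nonTG, and 5.06, 5.38 and 4.84 in C57BL/6, again lowest or near lowest in KDM1A TG replicate 2. Sntn, which encodes sentan of the ciliary tip, read 8.53, 7.16 and 7.73 in KDM1A TG, 8.37 and 7.93 in nonTG, and 7.49, 8.16 and 6.68 in C57BL/6. Dynein assembly and docking factors, 13 genes that pre-assemble arms in the cytoplasm or anchor them, correlated with the member mean at 0.97 (Spearman 0.98, and 0.94 without the 2 arrays farthest from the median). Another 32 axoneme genes correlated at 0.98 (Spearman 0.91, and 0.98 without those arrays). Transport and trafficking genes with symbols other than Ift, 25 in number, gave 0.93 (Spearman 0.91, and 0.92 without those arrays). The lists are apart from the members by symbol only, and some of their genes belong to the same complexes. Of these 4 lists, none of the 29, 13, 32 and 25 genes passed in any of the 3 comparisons, and 5, 3, 3 and 2 had an unadjusted p under 0.05 for KDM1A TG against C57BL/6, where 14.2% of all genes did.

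Regulators that start multiciliated cell formation had a lower correlation with the members. Their 14 tested genes correlated at 0.30 with the member mean (Spearman 0.48, and -0.20 without the 2 farthest arrays). Mcidas, which acts upstream of Foxj1, had log2 values of 3.45, 3.61 and 3.03 in KDM1A TG, 3.41 and 2.93 in nonTG, and 4.14, 3.25 and 3.35 in C57BL/6, with its highest value in a pool where the members were low. Other genes of the list had changes above 0 in both comparisons, such as Deup1, which acts in centriole amplification (0.62 in KDM1A TG and 0.70 in nonTG), Myb (0.44 and 0.63) and Gmnc (0.36 and 0.47). Deup1 read 4.55, 2.47 and 3.08 in KDM1A TG, 4.23 and 2.66 in nonTG, and 2.19, 3.18 and 2.87 in C57BL/6, so its groups overlapped. Cep152 was below 0 in both (-0.45 and -0.31), and E2f4 had 0.32 and -0.84. In all, 12 of the 14 changes were above 0 in KDM1A TG and 7 in nonTG, against 64.9% and 53.2% of all genes, and none passed. The list also holds E2f4, E2f5, Plk4 and others with roles in dividing cells.

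**Figure D3:**
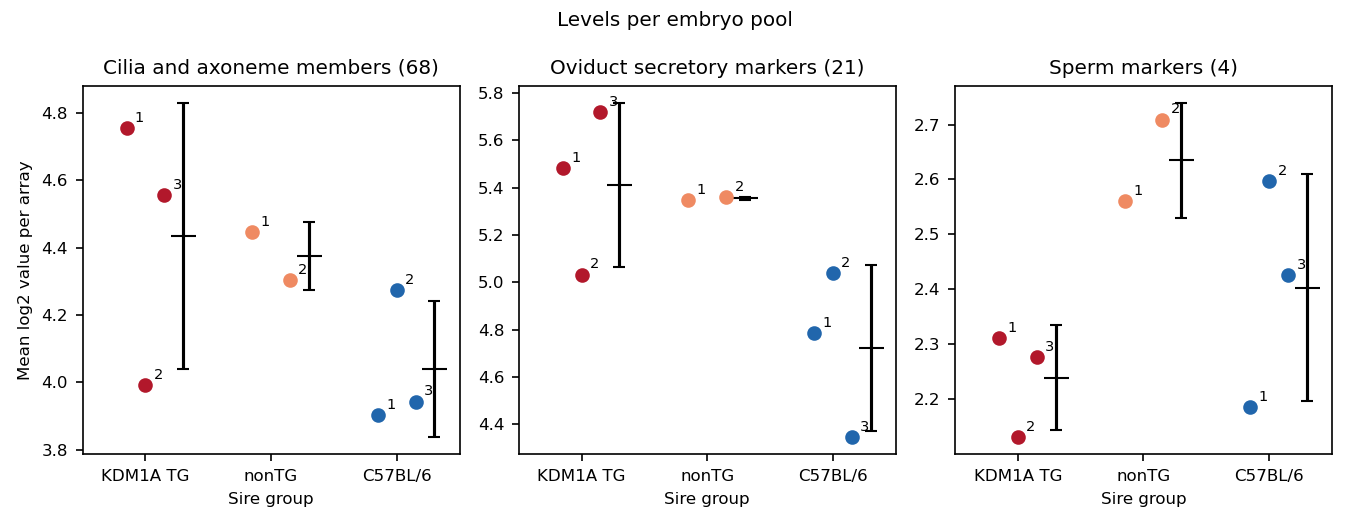
Mean log2 value per array for the 68 members, 21 oviduct secretory markers and 4 sperm markers, with points numbered by replicate and black bars giving the group mean ± SD. Each panel has its own scale; members and secretory markers are high in KDM1A TG replicates 1 and 3, and sperm markers span only 2.13 to 2.71.

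Markers of other cells in a flushed pool moved with the members to different degrees. As a background, the mean of all other genes correlated with the member mean at 0.74 (Spearman 0.81, and 0.62 without the 2 farthest arrays). Oviduct secretory epithelium markers (21 of 26 listed genes tested) had means of 5.48, 5.03 and 5.72 in KDM1A TG, 5.35 and 5.36 in nonTG, and 4.78, 5.04 and 4.34 in C57BL/6, and correlated with the member mean at 0.85 (Spearman 0.93, and 0.88 without the 2 farthest arrays). Of these 21 genes 2, Fxyd4 and Sult1d1, passed in each comparison with C57BL/6, against 0.725% of all genes in KDM1A TG and 0.131% in nonTG. The secretory list also holds general epithelial genes such as Epcam, Cdh1 and Krt8, so it does not mark secretory cells alone. KDM1A TG replicate 2 was close to C57BL/6 replicate 2 in secretory markers and lower in members, at 3.99 against 4.27. Stromal and smooth muscle markers (18 genes) had means of 4.63, 4.35 and 5.95 in KDM1A TG, 5.25 and 3.86 in nonTG, and 4.26, 4.33 and 3.58 in C57BL/6, with a correlation of 0.62 (Spearman 0.71, and 0.81 without those arrays). Of these 18 genes Acta2 and Myl9 passed in KDM1A TG and 0 in nonTG. Stroma was highest in KDM1A TG replicate 3, whereas members were highest in KDM1A TG replicate 1. With the secretory mean as a covariate, an alternative added after seeing the data, the member median relative to all genes was -0.20 in KDM1A TG and 0.0012 in nonTG, in place of 0.26 and 0.34. The secretory mean itself differed between the groups (5.41 in KDM1A TG, 5.35 in nonTG and 4.72 in C57BL/6), so in that fit the covariate and the sire group cannot be fully told apart. The part of oviduct cells in the member levels was not tested.

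Markers of embryo RNA ran against the members. Maternal oocyte genes (14 tested) had means of 4.78, 5.50 and 4.85 in KDM1A TG, 4.12 and 4.84 in nonTG, and 5.49, 4.57 and 5.36 in C57BL/6, and correlated with the member mean at -0.71 (Spearman -0.62, and -0.77 without the 2 farthest arrays). Genes of 2-cell activation (13 tested) correlated at -0.66 (Spearman -0.74, and -0.74 without those arrays). The pools with high maternal means, KDM1A TG replicate 2 and C57BL/6 replicates 1 and 3, were those with the lowest member means.

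**Figure D4:**
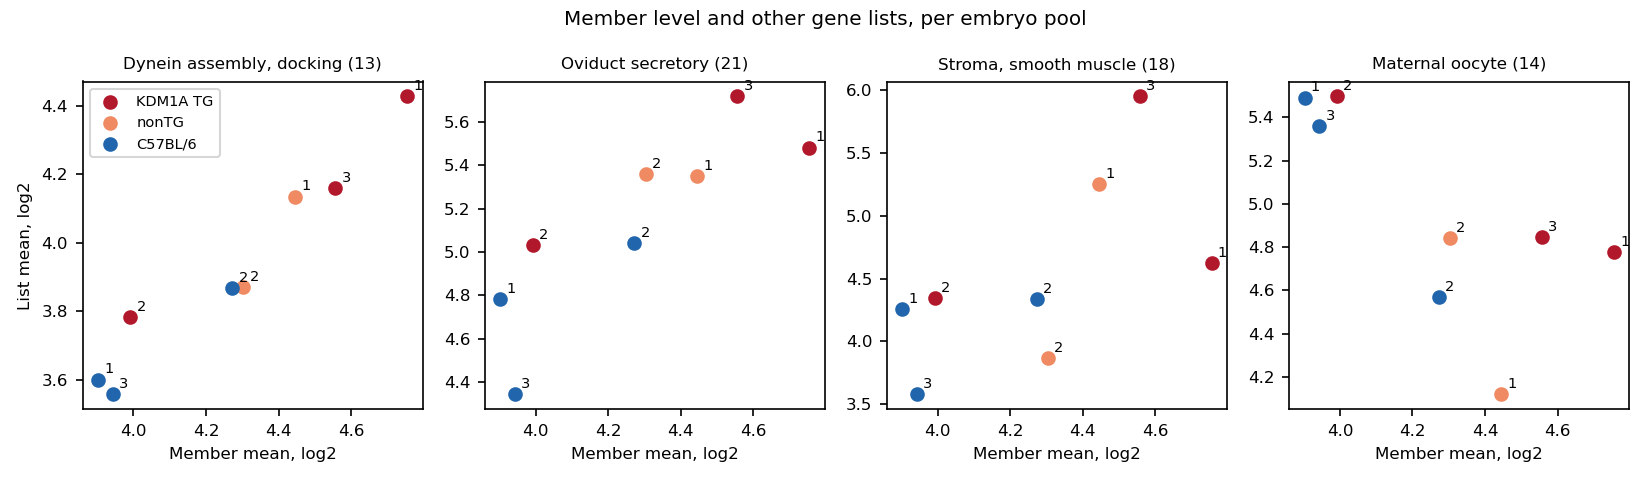
Mean log2 value of 4 gene lists (vertical axes, each on its own scale) against the mean of the 68 members (horizontal axis) in the 8 embryo pools, coloured by sire group and numbered by replicate. Dynein assembly and docking genes follow the members closely (r = 0.97), secretory markers less so (0.85), stromal markers loosely (0.62), and maternal genes run the other way (-0.71). The mean of all other genes, not shown, gave 0.74.

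Sperm tails share the axoneme, so sperm markers were set beside the members too. Of 22 listed sperm and spermatid genes 9 had a probeset and 4 passed the filter. Their mean was 2.31, 2.13 and 2.28 in KDM1A TG, 2.56 and 2.71 in nonTG, and 2.19, 2.60 and 2.43 in C57BL/6, and the correlation with the member mean was 0.24 (Spearman 0.24, 0.29 without the 2 farthest arrays, and 0.64 after subtracting group means). The transition protein gene Tnp1 read 2.52, 2.30 and 2.34 in KDM1A TG, 2.81 and 2.84 in nonTG, and 2.11, 2.75 and 2.39 in C57BL/6, above the filter level of 2.07 in every pool and highest in nonTG. Smcp, Oaz3, Spem1, Acrv1 and Crisp2 were under that level on average. Cumulus and granulosa markers (8 genes) and blood and immune markers (9 genes) correlated with the members at 0.11 and -0.16. After subtracting group means, these lists gave 0.195 and 0.09, secretory markers 0.74, stromal markers 0.44 and multiciliated cell regulators -0.28. Maternal oocyte genes gave -0.85, genes of 2-cell activation -0.75 and the mean of all other genes 0.755. Dynein assembly and docking factors, other axoneme genes, ciliated cell markers and trafficking genes gave 0.97, 0.97, 0.91 and 0.92. Of the blood and immune genes 1 passed, S100a9, lower in KDM1A TG than in C57BL/6 (log2 change -1.92, limma adjusted p = 0.0111), against 0.725% of all genes. It read 2.06, 3.14 and 1.96 in KDM1A TG and 6.41, 2.82 and 3.70 in C57BL/6. The groups overlapped, and C57BL/6 replicate 1 stood far above the other arrays.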

How the data were processed

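Per the submitters' processing notes, R 3.1.0, oligo, RMA and limma were used, without the role of each. The matrix deposited by the authors holds log2 values for 22961 probesets, with array medians from 2.73 to 2.86. The columns do not share a distribution, and no further scaling was applied in the main results. Beyond the name RMA, background correction and scaling between arrays are not described in the sources used here. No value can be called above background. Genes were named from the platform annotation (15745 probesets with 1 symbol, 1320 with several, 5896 unnamed), the brightest probeset per symbol was kept, and genes above the 30th percentile were tested. Symbols looked up by gene identifier in RefSeq (GRCm38.p6) needed no update.

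A model with 3 group means was fitted to all 8 arrays (limma 3.58.1, lmFit and eBayes, R 4.3.3), two-sided, adjusted over 11444 genes at 0.05, with 95% intervals. The method was tested on simulated data. Alternatives changed the filter, the scaling, the eBayes settings, the array weights, the probeset choice, the replicate block and the set of arrays. Values are compared between arrays and not between probesets. The members, gene lists and tests were chosen with earlier results of these data known. Named members are the 5 with the smallest p on each side of a comparison, those listed singly, the 10 brightest and the brightest of each role, and others are named beside small counts or where they stand out in a description, after their values were seen. Correlations over the 8 arrays are descriptions without a p.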

Additional observations from a re-analysis of the deposited data

How the results depend on the processing

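No member passed in any comparison under any alternative, except for KDM1A TG against C57BL/6 with array weights (25) and without KDM1A TG replicate 2, where Ift27 passed (log2 change 1.59, limma adjusted p = 0.03); leaving out single arrays gave 0 to 1 there and 0 to 0 in the other comparisons. The median member change relative to all genes ranged over single arrays left out from 0.09 to 0.46 for KDM1A TG against C57BL/6, from 0.23 to 0.43 for nonTG against C57BL/6 and from -0.21 to 0.07 for KDM1A TG against nonTG. In the same order it was 0.18, 0.32 and -0.14 with quantile normalization, 0.15, 0.27 and -0.12 with cyclic loess, and 0.16, 0.33 and -0.15 with the filter at the 50th percentile. With the secretory mean as a covariate it was -0.20, 0.0012 and -0.08. With KDM1A TG replicate 2 as the lone KDM1A TG array, assumed to vary like the other groups, the comparison with C57BL/6 gave -0.16 and that with nonTG -0.46. The covariate and the lone array were chosen after seeing the data. With the replicate block it was 0.26, 0.27 and -0.07, and the block added no call. In their deviations from group means, same-numbered KDM1A TG and C57BL/6 arrays correlated at -0.07, -0.38 and -0.11. The same-numbered arrays of KDM1A TG and nonTG correlated at 0.11 and 0.18, and those of nonTG and C57BL/6 at 0.01 and -0.25. Deviations within such small groups are tied to each other, so these values cannot show whether replicate numbers pair the samples. Of 102 changes of named members, 36 changed sign with the covariate, 25 with that lone array, 11 without KDM1A TG replicate 2, 9 each without KDM1A TG replicate 1, with quantile normalization and with cyclic loess, 8 each with array weights and without either nonTG array, and 0 to 6 in the others. Array weights put 13 of the 102 past the threshold, all for KDM1A TG against C57BL/6, where 14.8% of all genes passed with those weights. Some named members were chosen for a small p in these same data. The causes were not tested. Without the filter the KDM1A TG against nonTG median turned sign, with 0.07 for members and 0.06 for all genes. Signal over background is not known for these values.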
